A study of Bactrocera dorsalis with 4 samples.

Results

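The miRNAs of female and male bodies of the oriental fruit fly, Bactrocera dorsalis, were compared after the ovaries and testes had been dissected away. The female body and the male body were each sequenced as 1 small RNA library, from adults aged 12 days that had been reared on artificial diet and kept apart by sex after emergence. The ovaries and testes taken from these flies gave 2 further libraries, which were used here only to place the names that 1 body lists. The labels gave no treatment for any group, and how many flies went into a library was not given in the sources used here. For each library the deposited file lists known miRNAs by name, with the sequence found, the position of the hairpin and a miRBase status of Yes (the sequence is in miRBase), Diff (it differs from the miRBase sequence) or New. Rows marked Yes or Diff were used. They numbered 206 of 228 rows for the female body and 207 of 235 for the male body. Names that differed in a copy number alone were merged, so that miR-2a-1-5p and miR-2a-2-5p counted as miR-2a-5p. This gave 150 names for the bodies, out of 163 in the 4 libraries together.

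A miRNA is cut from a hairpin in its primary transcript, and each side of the hairpin, the 5p or the 3p arm, can give a mature strand of about the same size. One strand is usually kept by an Argonaute protein and guides it to messenger RNAs, while the other, the passenger strand, is mostly degraded. Pairing with the target rests mainly on the seed, bases 2 to 8 from the 5′ end. In Drosophila the somatic tissues of both sexes share most of their miRNAs, among them miRNAs of neurons, muscle and fat body, and many miRNAs with a known sex difference belong to the germline.

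The lists hold no amounts. A name was therefore either listed or not listed, the depth behind a single name could not be read from the lists, and a name missing from a list was not read as absent from the tissue. With 1 library on each side there was no replicate and no test between the sexes. By the clean reads that the paper gives, the male body library was the deepest, followed by the testes, the female body and the ovaries. How far depth bears on the lists was not tested. Of the lists used, 24.3% of the female rows and 27.5% of the male rows were placed under a chromosome arm name of Drosophila melanogaster (2L, 2R, 3L, 3R or X) and the others on contigs of B. dorsalis, whose names begin with JFBF.

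The bodies shared most of their known miRNAs. Of the 150 names, 13 were listed in the female body only, 13 in the male body only and all the others in both. The shared names made up 82.7% (exact binomial 95% limits 75.6% and 88.4%, for counting error alone). Names listed in 1 body only were 17.3% of all, with 8.67% for each sex. Among the other pairs of libraries the shared part ran from 76.2% (male body and ovaries) to 79.5% (male body and testes), and ovaries and testes shared 79.0%. Each of their intervals overlapped that of the bodies, which is not a test. The pairs reuse the same 4 libraries and names are not replicates, so the shares were not tested against each other. Between the ovaries and testes, 9 names were listed in the ovaries only and 21 in the testes only.

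The female body alone listed miR-33-5p, which in animals lies within an SREBP gene and acts in lipid metabolism. It also listed miR-309-3p, of the cluster that clears maternal messenger RNA in the early Drosophila embryo, and miR-310-3p, of a fast-changing cluster related to miR-92. The other names were miR-959-5p, miR-960-5p, miR-984-5p, miR-13a-5p, miR-31a-3p, miR-31b-3p, miR-282-3p, miR-987-3p, miR-124-3p and miR-307. The male body alone listed miR-279-3p, which in Drosophila controls the formation of carbon dioxide sensing neurons, and miR-1012-3p, a mirtron, that is a hairpin made from a short spliced intron. It further listed miR-975-5p, miR-4966-5p, miR-9369-5p, miR-4961-5p, miR-4968-3p, miR-963-3p, miR-991-3p, miR-190-3p, miR-276b-5p, miR-315-3p and miR-1000-3p.

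Sequences of 10 of the 15 names that stood in 1 body with neither arm in the other body are shown first, since here the lists differ in the whole miRNA. The capitals mark the seed. Those of the female body were as follows.
miR-33-5p: tTGCATTGtagtcgcattgt
miR-959-5p: cTTAGTACtcgggttgataaa
miR-960-5p: tGAGTATTccagattgcatag
miR-984-5p: tGAGGTAAatacggttggaat
Those of the male body, with seeds again in capitals, were as follows.
miR-279-3p: tGACTAGTtccacactcatt
miR-963-3p: aCATCTGTatatacctttgttct
miR-975-5p: tAAACACTtcctacatcctgtat
miR-1012-3p: tTAGTCAAagattttccccatag
miR-4966-5p: tACTAAATatattgcacatgtt
miR-9369-5p: aGCGAGAGggtattatgtattc
The seeds of these 10 sequences all differed from each other. The male body also listed a pair of short sequences made up largely of a repeated unit, shown for these repeats.
miR-4961-5p: cTTTATGTgtatgtatgt
miR-4968-3p: aACAACAGcagcagcagca
They were 18 and 19 nt long and were placed at X:1267656-1267788 on the plus strand and 3L:11545639-11545793 on the minus strand.

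The 26 names fell into 3 kinds. For 15 of them the stem, which is the name without its arm, was listed in 1 body only, 6 in the female body and 9 in the male body. For 9 the stem was listed in both bodies and only the second arm was missing from one of them, 5 with the extra arm in the female body and 4 in the male body. For the remaining 2, miR-124-3p and miR-307, the male body listed nearly the same sequence under another name. This kind was looked for only where 1 of the names has no arm. By sequence miR-276b-5p, counted among the 9, was alike, since it shared a run of 22 bases with miR-276a-5p of both bodies.

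**Figure D1:**
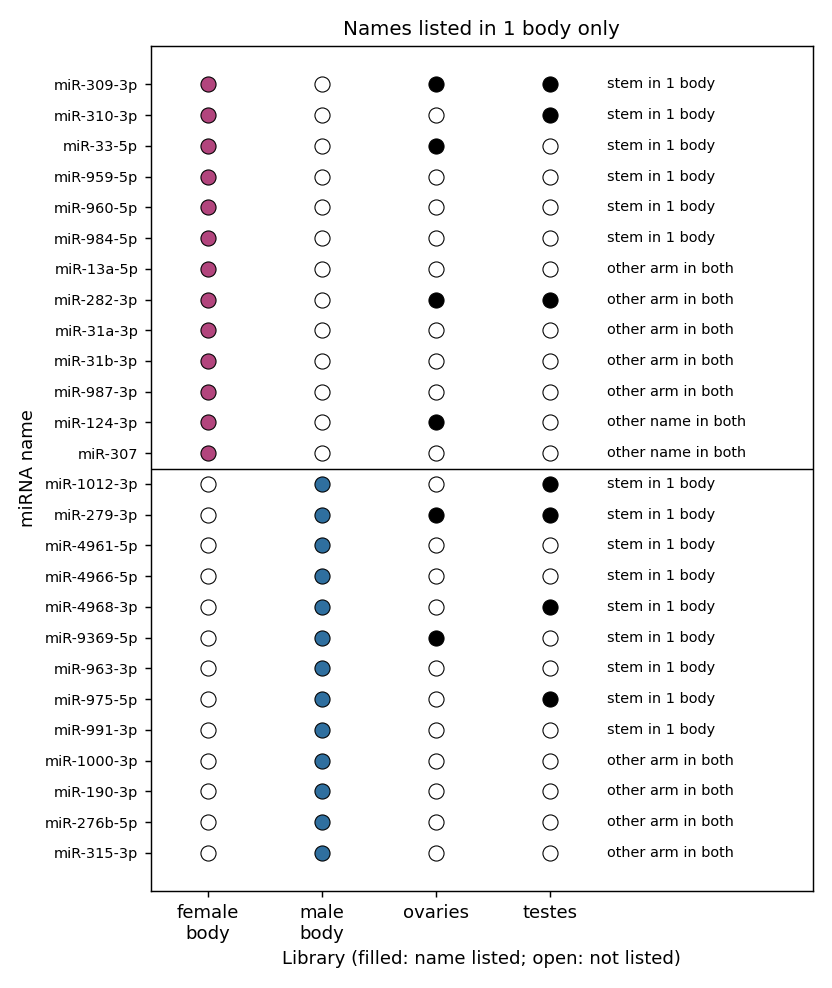
Each row is a miRNA name listed in 1 of the 2 bodies and each column a library, with a filled circle where the name was listed and an open one where it was not, and the text on the right gives the kind of difference. The 13 names of the female body stand above the line and the 13 of the male body below it, and 8 names on each side had no filled circle in either gonad.

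Of the 13 names of the female body, 2 (miR-33-5p and miR-124-3p) were also listed in the ovaries, 1 (miR-310-3p) in the testes and 2 (miR-309-3p and miR-282-3p) in both gonads. Of the 13 names of the male body, 3 (miR-975-5p, miR-1012-3p and miR-4968-3p) were also listed in the testes, 1 (miR-9369-5p) in the ovaries and 1 (miR-279-3p) in both. The other 8 names of each body were found in no other library. Of the shared names, 106 were listed in both gonads as well, 4 in the ovaries only, 10 in the testes only and 4 in neither. The 2 sets of names were themselves chosen by listing, so no conclusion is drawn from this contrast. The shared names that neither gonad listed were miR-210, miR-210-5p, miR-929-3p and miR-981-5p.

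The single-body names also differed in where their hairpins were placed. Of the shared names, 9 (7.26%) had every entry under a Drosophila arm name. Of the 26 single-body names the number was 14 (53.8%), with 6 of 13 in the female body and 8 of 13 in the male body. A shared name can have several sequences and therefore several places, but among the 78 shared names with 1 sequence the number was still 9 (11.5%). Among the 15 names whose stem was in 1 body only it was 12, and the 3 exceptions on B. dorsalis contigs were miR-33-5p, miR-279-3p and miR-309-3p. Entries identical to miRBase were also fewer, at 6 of 26 single-body names (23.1%) against 50 shared names (40.3% of them).

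**Figure D2:**
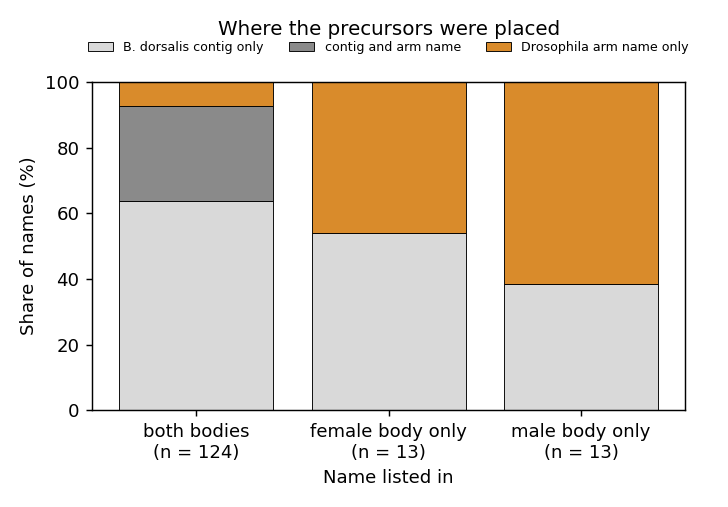
The bars give the share of names, in percent, placed on B. dorsalis contigs alone, under Drosophila arm names alone, or under both, for the names of both bodies and the 13 names of each body alone. Names placed under an arm name alone were 7.26% of the shared names, 6 of 13 of the female body and 8 of 13 of the male body.

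For each of the 3 single-body stems placed on contigs, a gonad listed the name as well. The hairpin of miR-33-5p was on the plus strand at JFBF01000286.1:72318-72383, and neither the testes nor the male body listed it. The hairpin of miR-279-3p was on the minus strand at JFBF01001543.1:9090-9175, and the female body was the one library of the 4 without it. The hairpin of miR-309-3p was on the minus strand at JFBF01000054.1:205208-205296, with hairpins of miR-4-3p starting 456 and 1682 bases away and hairpins of miR-6-3p starting 1303, 1358 and 2171 bases away. The neighbours miR-4-3p and miR-6-3p were listed in all 4 libraries, and the male body was the one library without miR-309-3p. The build of the contigs was not given in the sources used here beyond their names, and none of the hairpins was compared with gene annotation.

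Several of these names were placed under Drosophila arm names in a cluster of which the other body listed another piece. The distances given here and in the next paragraph are between Drosophila positions. Whether these miRNAs lie together in B. dorsalis was not seen in the lists. On arm 2L, miR-959-5p and miR-960-5p of the female body started 123 bases apart, and miR-963-3p of the male body started 1050 bases from the former. In Drosophila this cluster is active in the testis and in the head fat body. The 3 hairpins were listed at 2L:5640940-5641037, 2L:5641063-5641155 and 2L:5641990-5642078, all on the plus strand. The gonads listed different members there, miR-959-3p and miR-961-5p. No member of the cluster was thus listed in both bodies.

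On the Drosophila X, the male body listed 3 names that the female body did not list within a stretch of 7435 bases between starts. They were miR-9369-5p at X:19445351-19445412, miR-4966-5p at X:19452403-19452529 and miR-975-5p at X:19452786-19452876, all on the plus strand. Their neighbour miR-976-3p, which started 142 bases from miR-975-5p, was listed in all 4 libraries. The female body in turn listed miR-984-5p on the minus strand at X:4262679-4262768, 163 bases between starts from miR-983-5p, which both bodies and the testes listed. In Drosophila both places hold clusters of miRNAs found mostly in the testis. On 2R, miR-310-3p of the female body and miR-991-3p of the male body started 1448 bases apart, with miR-311-3p and miR-312-3p, both listed in the 2 bodies, between them. The Drosophila build behind these positions was not given in the sources used here.

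A name missing from one body did not always leave its seed missing. Of the 26 single-body names, 6 had a seed that the other body listed under another name, 5 from the female body and 1 from the male body. Counted by seed, the bodies shared 84.4% of 147 seeds, with 9 seeds in the female body only and 14 in the male body only. The seed of miR-310-3p stood in the male body in miR-92b-3p, miR-311-3p and miR-312-3p, and that of miR-309-3p stood there in miR-318-3p. For 3 further names, a name of the other body with the same bases 2 to 7 is given here. Bases 2 to 8 are in capitals, to be read against the lines above.
miR-12-5p, male body, read against miR-960-5p: tGAGTATTacatcaggtactggt
let-7-5p, male body, read against miR-984-5p: tGAGGTAGtaggttgtatagt
miR-996-3p, female body, read against miR-279-3p: tGACTAGAtttcatgctcgt
The first pair had the same seed. The second and the third pair had the same bases 2 to 7 and differed at base 8. In Drosophila miR-279 and miR-996 are neighbours that act on the same targets. The female body listed miR-996-3p and not miR-279-3p, while the male body, the ovaries and the testes listed both.

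The second arm of a hairpin was the difference for 9 names. In the female body 36 stems had both arms listed and in the male body 35, of 87 and 89 stems with a stated arm, and 31 had both arms in both bodies. The female body had the pair, and the male body 1 arm, for miR-13a, miR-31a, miR-31b, miR-282 and miR-987. The male body had the pair, and the female body 1 arm, for miR-190, miR-276b, miR-315 and miR-1000. The arm that both bodies shared was the 5p arm for 7 of the 9 stems, and it was the 3p arm for miR-13a and miR-276b. Of the 9 extra arms, 8 were listed in no other library, and the exception was miR-282-3p, which both gonads listed. The sequences of 7 of these arms are given with their seeds in capitals, the first 3 from the female body and the others from the male body.
miR-13a-5p: cTCCTCAAagggttgtgaaatg
miR-31b-3p: tATGCCTCatctagtcaattg
miR-282-3p: aCATAGCCtaaaagaggttagg
miR-190-3p: cCCAGGAAtcaaacatattatt
miR-276b-5p: aGCGAGGTatagagttcctacgg
miR-315-3p: cTTTCGAGcaataattaaaacc
miR-1000-3p: cTGCTGGGccggggcattaaca

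Among these, miR-1000 restrains glutamate release in Drosophila neurons, miR-315 raises Wingless signalling, and miR-13a belongs to the miR-2 family, which represses genes of cell death. The 3p arm of miR-190 in the male body lay on the same hairpin as the shared 5p arm, on the minus strand at JFBF01000086.1:882745-882840. The 5p arm of miR-276b was placed at JFBF01000015.1:91725-91798 and at JFBF01000015.1:288545-288633, both on the plus strand. The last of these overlapped the hairpin of miR-276a, whose 5p arm was listed in both bodies with the sequence aGCGAGGTatagagttcctacg. The run of 22 bases shared by miR-276b-5p and miR-276a-5p was the whole of the latter, so that these paralogues could not be told apart by this strand, and its listing in the male body only is uncertain. The place of miR-31b-3p was uncertain as well, with hairpins at JFBF01000073.1:639392-639499 and JFBF01000025.1:1708080-1708182, both on the plus strand. The last of these was also the listed place of a form of miR-31a-5p.

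The miR-124 lists differed in the name rather than in the miRNA. miR-124 is the classical miRNA of neurons, and in Drosophila its loss lowers the courtship success of males. All 4 libraries listed it as miR-124, and the female body and the ovaries listed a longer form as miR-124-3p besides. In the lines that follow the seed is in capitals.
miR-124, all 4 libraries: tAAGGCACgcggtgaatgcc
miR-124-3p, female body and ovaries: tAAGGCACgcggtgaatgccaaa
The run of 20 bases shared by the pair was the whole of the shorter form. For miR-307, listed in the female body only, the shared run with miR-307a-3p of both bodies was also 20 bases, with starts 67 bases apart on the same contig.

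Groups of miRNAs with a known role in Drosophila were then counted, with 17.3% single-body names among all 150 as the background. For the nervous system and sense organs, 34 names of 19 of the 20 stems in the list were found in the bodies, and 30 of them were shared. The 4 single-body names, which are 3 second arms of the male body (miR-190-3p, miR-315-3p and miR-1000-3p) and miR-124-3p, were near the background. Both bodies listed miR-7 and miR-9a, which act in sense organ formation, on both arms, and miR-263a and miR-263b, which protect sensory bristles. Of the 34 names, the female body listed 31, the male body 33, the ovaries 21 and the testes 25. Over all names each body list was also longer than the gonad lists, which held 122 names for the ovaries and 134 for the testes. For the testes that difference was small. Against the male body, 17 names were in the male body only and 14 in the testes only. The list of this group did not hold miR-279, and with it, added after its values were seen, 5 of 35 names were in 1 body, 4 of them in the male body.

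All 7 names of the let-7 complex (let-7, miR-100 and miR-125), which times the remodelling of adult nerve and muscle and is linked to sexual identity in Drosophila, were shared by the bodies. So were both arms of miR-1, the miRNA of muscle, while miR-133 was in neither list. All 6 names from the Hox region were shared, namely both arms of miR-10 and of miR-993, miR-iab-4-5p and miR-iab-8-5p. Of 11 names that act in metabolism, fat body and gut, 10 were shared. They included both arms of miR-8, a regulator of fat body growth, of miR-14, which acts in fat metabolism, and of miR-275 and miR-305, and the exception was miR-33-5p. Of 10 names of the miR-2 seed family, taken by stem with both arms, 9 were shared. The exception was miR-13a-5p, the arm without that seed. The shared names included other 5p arms, namely miR-2a-5p, miR-2b-5p and miR-308-5p. With so few names in each of these groups, their counts were near the background of 17.3% single-body names.

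Groups known from the germline were still listed in the bodies. Of 7 names of the early embryo and ovary, 6 were shared by the female and male bodies, namely miR-4-3p, miR-5-5p, miR-6-3p, miR-318-3p, miR-989-3p and miR-994-5p, and miR-309-3p was in the female body only. The ovaries and the testes each listed 8 names of this group. Of 4 names of the miR-310 group, 3 were shared and miR-310-3p was in the female body only. Since lists hold no amounts, traces of gonad left in a body and expression in the body itself could not be told apart.

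The testis clusters of Drosophila were the group with the most single-body names. Of 7 names in the bodies, 2 (miR-976-3p and miR-983-5p) were shared, 3 (miR-959-5p, miR-960-5p and miR-984-5p) were in the female body only and 2 (miR-963-3p and miR-975-5p) in the male body only. Single-body names of the group were thus found in both sexes, and 4 of the 5 were in neither gonad, with miR-975-5p in the testes as the exception. All 7 were placed under a Drosophila arm name alone. Among all body names with that placing, 14 were single-body and 9 shared, against 17.3% single-body among all 150 names. The 5 of 7 were thus near the share for this placing, and group and placing could not be told apart. Of this group, the paper describes miR-975-5p, miR-983-5p and miR-984-5p as expressed at a low level in every sample. Whether this bears on their listing was not tested. The list of this group did not hold miR-4966-5p and miR-9369-5p, which lay near miR-975-5p and, of the bodies, were listed in the male one only. With them, added after their values were seen, 4 of 9 names were in the male body only and 3 in the female body only, and 5 of these 7 were in neither gonad. The other names of the listed group in the 4 libraries, 4 of 11, were listed in a gonad only. Of the mirtrons in the list, the bodies listed miR-1012-3p, in the male body only and at 3R:22687071-22687129 on the minus strand, and the testes listed it with 2 more. The 62 names in no group had 50 shared, 5 of the female body only and 7 of the male body only.

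**Figure D3:**
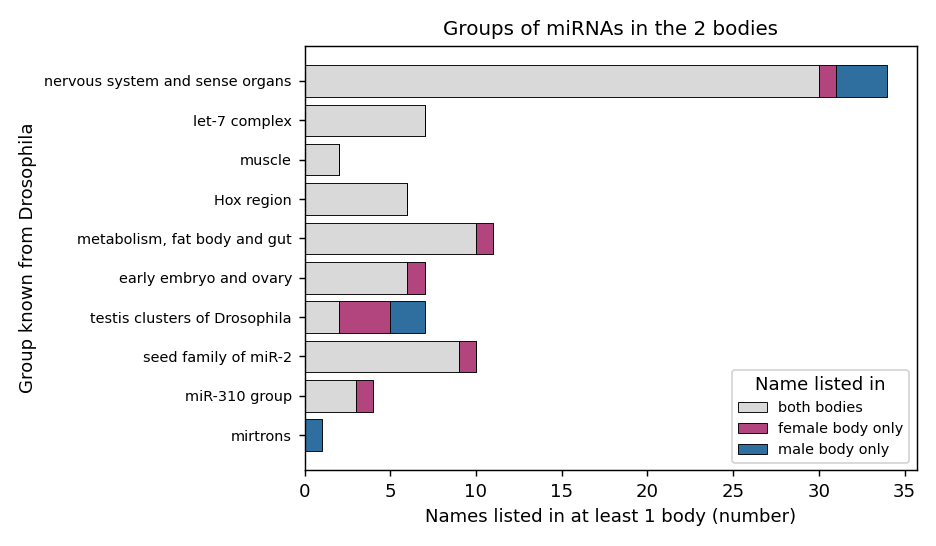
The bars give the number of names listed in at least 1 body for each group known from Drosophila, split into names of both bodies, of the female body only and of the male body only. The let-7 complex, muscle and Hox groups, with 7, 2 and 6 names, held shared names alone. For so few names this is near the 17.3% of single-body names among all 150. Of the testis clusters 5 of 7 names stood in 1 body, and all 7 were placed under a Drosophila arm name alone.

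The bodies were next compared by sequence form, where a form is a distinct sequence under 1 name. The female body listed 192 forms and the male body 196, and 173 were the same in both. These made up 80.5% of 215 (exact binomial 95% limits 74.5% and 85.5%, for counting error alone). Forms of 1 name are not independent, which these limits do not take into account. Of the shared names, 108 had exactly the same forms in the 2 bodies, 78 of them with 1 form and 30 with several. The other 16 shared names had 1 form each that the other body did not list, 6 in the female body and 10 in the male body. Lengths were taken over all 215 forms, those of single-body names included. The 173 forms of both bodies had a median length of 22 nt. The median was 21 nt for the 19 forms of the female body only and 22 nt for the 23 of the male body only. All lay within 18 to 25 nt. The forms described below are the 16 of shared names.

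**Figure D4:**
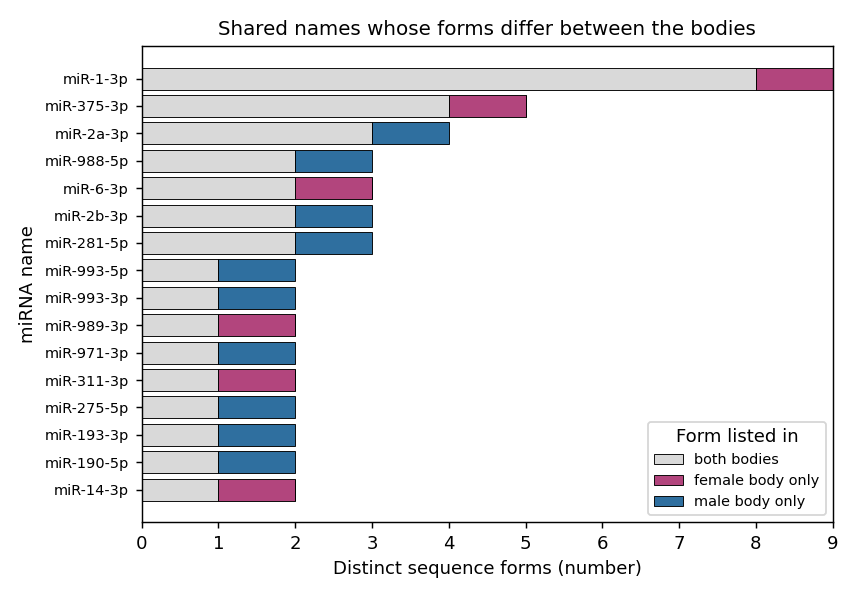
Each bar gives the number of distinct sequence forms of a shared miRNA name, split into forms of both bodies, of the female body only and of the male body only, for the 16 names whose forms differ. miR-1-3p had the most, with 9 forms in the female body and 8 in the male body, and each of the 16 names had 1 form in a single body.

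Of the shared names, 36 had entries both on B. dorsalis contigs and under Drosophila arm names. Most of these listed the same forms in both bodies, so this placing was not particular to 1 sex. Among the single-body forms of shared names, 8 of 10 of the male body were under a Drosophila arm name, against 1 of 6 of the female body. This difference was not tested. For each of the 8, the form that both bodies listed was placed on a B. dorsalis contig. An example is miR-993, a member of the miR-10 family from the Hox region. Both arms had a second form in the male body, and both second forms were placed on the same hairpin on the plus strand at 3R:2602055-2602173, while the shared forms were on the plus strand at JFBF01000177.1:21672-21778. In the lines that follow, the capitals mark the bases that differ between the forms of a name.
miR-993-5p, both bodies: taccctgtAgttccgggcttt
miR-993-5p, male body: taccctgtGgttccgggcttttt
miR-993-3p, both bodies: gaaGctcgtctctacaggTatct
miR-993-3p, male body: gaaTctcgtctctacaggGatct
Counted from 1 at the 5′ end, with the shared form first, the differences were A9G on the 5p arm and G4T and T19G on the 3p arm. G4T lies within the seed of the 3p arm.

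The same was seen for miR-190-5p, miR-193-3p and miR-971-3p. Their second forms in the male body were on the plus strand at 3L:8564899-8564998, 3L:21567114-21567221 and X:12956105-12956200. Capitals again mark the bases that differ.
miR-190-5p, both bodies: agaTatgtttgatattcttggtTg
miR-190-5p, male body: agaGatgtttgatattcttggtA
miR-193-3p, both bodies: tactggcctactAagtcccAac
miR-193-3p, male body: tactggcctactCagtcccCac
miR-971-3p, both bodies: ttggtgttacttcttAcAgtga
miR-971-3p, male body: ttggtgttacttcttGcGgtga
The differences were T4G and T23A for miR-190-5p, A13C and A20C for miR-193-3p, and A16G and A18G for miR-971-3p. The form of miR-190-5p was also listed in the testes, and those of miR-193-3p and miR-971-3p were in no other library. For miR-275-5p, the form of the male body at 2L:7425795-7425892 on the plus strand was the shared form with 1 base of a run of g removed. The others of this kind were forms of miR-281-5p and miR-988-5p on 2R.

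The remaining male forms belonged to the miR-2 family and were a single sequence under both names. It was longer than the shared forms and, in the region they have in common, equal to that of miR-2b-3p. The capital marks the base that differs.
miR-2a-3p, both bodies: tatcacagccagctttgaTg
miR-2a-3p, male body: tatcacagccagctttgaGgagctt
For miR-2a-3p the difference was T19G. The sequence was placed on the minus strand at JFBF01000002.1:2204580-2204646 as miR-2a-3p and at JFBF01000002.1:2205076-2205196 as miR-2b-3p, and the ovaries and testes listed it too. The female body was the library without it. As the 2 names share this sequence, its assignment to either is uncertain.

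Of the 6 forms of shared names in the female body only, miR-1-3p and miR-375-3p had single-base differences on contigs. miR-1 acts in muscle, and miR-375 regulates insulin secretion in vertebrates. Capitals mark the bases that differ.
miR-1-3p, both bodies: tggaatgtaaAgaagtatggag
miR-1-3p, female body: tggaatgtaaCgaagtat
miR-375-3p, both bodies: tttgttcGtttggcttaagtt
miR-375-3p, female body: tttgttcTtttggcttaagt
The differences were A11C for miR-1-3p and G8T, the last base of the seed, for miR-375-3p. The form of miR-1-3p was placed on the minus strand at JFBF01000012.1:2541496-2541600, and neither form was listed in another library. The form of miR-375-3p was placed on the minus strand at JFBF01000071.1:1495379-1495456 and on the plus strand at JFBF01000015.1:3373579-3373598. The last interval is as long as the 20 nt form itself, so no hairpin was given there. The other 4 forms of the female body belonged to miR-6-3p, miR-14-3p, miR-311-3p and miR-989-3p. Those of miR-6-3p and miR-989-3p were also listed in the ovaries, that of miR-311-3p in both gonads, and that of miR-14-3p in no other library.

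**Figure D5:**
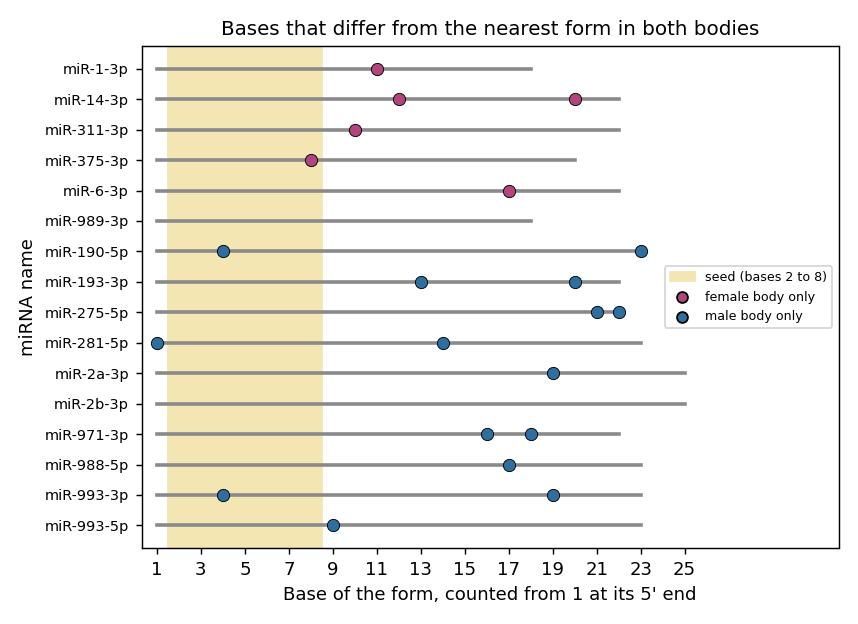
Each grey line is a form listed in 1 body, drawn over its bases from 1 at the 5′ end, and each dot is a base that differs from the nearest form of both bodies, read base by base from the 5′ end, with the seed shaded. Differences within the seed were found for miR-375-3p in the female body and for miR-190-5p and miR-993-3p in the male body, and the forms without a dot, miR-989-3p and miR-2b-3p, differed in length alone.

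Of the 16 single-body forms of shared names, 3 thus had another seed than the nearest shared form and 13 kept it. Those with another seed were miR-375-3p in the female body and miR-190-5p and miR-993-3p in the male body. Read base by base against the nearest shared form, 7 of the 16 had 1 differing base and 7 had 2, and 2 differed in length alone. Among those with 2 was miR-275-5p, which is the shared form with 1 base removed. By length, 5 were shorter, 6 longer and 5 equal to the shared form. In the gonads, 3 of the 6 forms of the female body and 4 of the 10 forms of the male body were listed. Known miRNAs were assigned with up to 1 mismatch, and the reads behind a form were not analysed here.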

How the data were processed

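Total RNA of 4 tissues was made into 1 small RNA library each. According to the methods, the authors trimmed adaptors, dropped poor reads and those that hit mRNA, Rfam or Repbase, and searched the remainder against miRBase and B. dorsalis miRNAs of earlier work, allowing 1 mismatch. The labels name ACGT101-miR 4.2. The other values in the deposited lists are lengths in nt and positions in bases, and they hold no counts, so they do not give the depth per name and no score, test or upper limit was computed.

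The miRNAs and groups were chosen with earlier results of these data known. Rows marked New were left out, copy numbers were merged, and names, forms, stems with arms, seeds (bases 2 to 8) and neighbours (starts within 10000 bases) were compared as sets, with 95% exact binomial (Clopper-Pearson) intervals on shares. A single-body form was read against the nearest shared form of its name. Every single-body name, every shared name with differing forms and the members of 10 groups known from Drosophila were to be named. Each list repeats 2 rows, which do not affect sets. Sequences on arm 2R, and other forms of those miRNAs, are not shown. The predicted miRNAs, listed without a sex, and the RefSeq annotation, of another assembly, were not used. Functions were tested on simulated data. Python 3.11.15, pandas 2.3.3, scipy 1.17.1 and matplotlib 3.10.9 were used.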

Additional observations from a re-analysis of the deposited data

Results flagged for a closer look

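Rows marked New were outside the comparison. They held 20 names in the female body and 21 in the male body, and 11 of the 30 names were common to both (36.7%, 95% exact binomial interval 19.9% to 56.1%). Names such as mir-124-p5, mir-14-p5 and mir-184-p5 were in both bodies. With no control library, they were marked for a closer look because they lie in rows that the comparison left out. Among the 9 of the female body only were mir-12-p3, mir-219-p3 and mir-983-p3, and among the 10 of the male body only were mir-87-p5, mir-137-p5 and mir-307a-p5.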

How the results depend on the processing

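With 1 library a side, these values describe 2 lists, and depth, gonad residue and sex could not be told apart. No paired analysis was possible because each group has 1 library and no test was made. The share of names in both bodies was 82.7%, and it stayed within its interval with names as listed (82.9%), with names without an arm joined to a listed arm (83.2%), and by sequence (80.8%), seed (84.4%) or family number (84.0%). It moved to 75.0% with New rows included, to 89.3% with Yes rows only and to 89.0% with contig rows only. Names of the female body only, 13 in the lists as used, numbered 22 with New rows, 2 with Yes rows only, 9 with contig rows only, 19 by sequence and 6 by family number. Those of the male body only, also 13, numbered 23 with New rows, 4 with Yes rows only, 5 with contig rows only, 22 by sequence and 9 by family number. With New rows added and stem and arm compared, an alternative chosen after seeing the data, there were 21 on each side. The share of forms, 80.5%, was 82.0% with 3′ variants taken as 1 form, 89.3% with Yes rows only, 73.1% with New rows and 87.7% with contig rows only. Stems with both arms in both bodies numbered 31, and 34 with New rows. Joining names made miR-124-3p and miR-307 shared, and reading New rows by arm made miR-315-3p shared, though its run in common with the New form was 3 bases. The other 23 single-body names stayed in 1 body under each alternative that compared names and still held them. Most of these alternatives could not have moved them, so no conclusion is drawn from this. Leaving out rows cannot make a name shared, New rows are written in another name style, and joining started only from names without an arm.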
